A study of Rattus norvegicus with 15 samples.

Results

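Best1, Pdzk1ip1, Gnrh1, Ccdc152 and Npff are 5 genes of the nuclear genome, out of 22436 genes in the table, whose RNA stood high in the prostate of rats with modelled prostatitis. They were chosen from the measured values: each was raised in the Model samples against Control, or in the ultrasound-treated samples against Control, and mitochondrially encoded genes were set aside. Differences of these genes in those contrasts are therefore descriptions without a test. The series measured RNA in prostate tissue of SD rats in 3 groups of 5 samples: Control and Model, both with no treatment in the labels, and LIPUS. LIPUS is low-intensity pulsed ultrasound, short bursts of sound waves used as a physical treatment, given for 4 weeks. The model is one of chronic prostatitis and chronic pelvic pain syndrome, a lasting pelvic pain without a proven infection. The sample titles put its intensity at 1.0 W/cm2 and the treatment field at 1.5 W/cm2, so the intensity is not settled. The labels do not say how the model was made, how old the rats were, which lobe was taken or whether each sample is its own animal, and the p-values cover only the spread between these samples. Libraries are named here by group and label number, as in Model_7.

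The 5 genes have unlike products. Best1 encodes bestrophin-1, a chloride channel opened by calcium and best known in the retinal pigment epithelium. Pdzk1ip1 encodes a small membrane protein, also called MAP17, that binds the PDZ scaffold Pdzk1 under the apical membrane of epithelial cells. Gnrh1 encodes the precursor of gonadotropin-releasing hormone, the hypothalamic peptide that drives the pituitary gonadotropins and through them androgen supply to the prostate. Npff encodes the precursor of neuropeptide FF, a peptide with an RFamide end that modulates opioid action and pain. Ccdc152 encodes a coiled-coil protein whose gene overlaps Selenop, the gene of the selenium carrier selenoprotein P. The rat prostate has ventral and dorsolateral lobes with unlike secretions. Probasin (Pbsn) and beta-microseminoprotein (Msmb) are products mainly of the dorsolateral lobes, whereas the secretoglobins Scgb1d2 and Scgb2a1 belong to the ventral lobe.

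The promoters are shown because all of these genes stood high together in most Model libraries, so a reader can see what letters lie upstream of each start. RefSeq promoters of the build GRCr8, from 250 bases before to 50 after the gene start, were at hand for 3 of the 5 genes, Best1 (chr1:216070909-216071208, minus strand), Pdzk1ip1 (chr5:133854822-133855121, plus strand) and Ccdc152 (chr2:54258060-54258359, minus strand). Each runs 5′ to 3′ on the gene's strand. Capitals mark AGAACA, a hexamer bound by steroid hormone receptors, CANNTG, the E-box of basic helix-loop-helix factors, and CCAAT, each searched on both strands.
Best1: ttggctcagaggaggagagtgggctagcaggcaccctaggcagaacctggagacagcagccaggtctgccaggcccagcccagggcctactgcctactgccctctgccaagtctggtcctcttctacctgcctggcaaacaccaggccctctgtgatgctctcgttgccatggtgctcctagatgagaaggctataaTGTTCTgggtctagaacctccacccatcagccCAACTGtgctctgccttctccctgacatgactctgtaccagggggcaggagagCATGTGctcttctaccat
Pdzk1ip1: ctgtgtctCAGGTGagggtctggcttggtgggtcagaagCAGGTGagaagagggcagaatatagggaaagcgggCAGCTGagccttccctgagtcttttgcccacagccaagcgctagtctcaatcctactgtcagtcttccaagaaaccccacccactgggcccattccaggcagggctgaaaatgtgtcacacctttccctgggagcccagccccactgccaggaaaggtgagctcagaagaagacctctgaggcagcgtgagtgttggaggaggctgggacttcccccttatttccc
Ccdc152: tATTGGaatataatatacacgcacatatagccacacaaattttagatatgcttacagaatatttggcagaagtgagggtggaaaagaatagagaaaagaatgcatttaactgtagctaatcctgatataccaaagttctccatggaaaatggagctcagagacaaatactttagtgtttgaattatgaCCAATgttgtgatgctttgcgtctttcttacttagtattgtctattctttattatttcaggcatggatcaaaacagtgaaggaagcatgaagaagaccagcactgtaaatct
The Best1 window held 1 match to AGAACA (read on the other strand) and 2 E-boxes. Pdzk1ip1 held 3 E-boxes and Ccdc152 2 CCAAT boxes. No motif was found in all 3 windows. Of 33469 RefSeq promoters of the same length, 20.7% held AGAACA, 37.5% CCAAT and 72.1% an E-box. The TATA box TATAAA, the AP-1 motif TGANTCA and the antioxidant response element TGACNNNGC were searched as well and had no match in these windows, against 14.2%, 7.33% and 12.1% of all promoters. These matches describe letters and not sites in use.

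The libraries differed between groups in ways that touch every value below. Each held 29675962 to 36402094 reads, but reads of mitochondrially encoded genes took 3.75 to 4.69% in Control, 23.5 to 43.5% in Model and 43.0 to 83.3% in LIPUS. Levels are in FPKM, fragments scaled to gene length and to the library's total reads, and so share that total. The median gene tested was lower by 0.90 on the log2 scale in Model and by 1.48 in LIPUS than in Control. How much of this the mitochondrial share accounts for was not tested. Values divided by median-of-ratios factors, called scaled below, had medians of -0.15 and -0.16. Markers of luminal epithelium, the secretory cells of the prostate, were present in every group, their 7 genes summing to 562 to 793 FPKM in Control, 507 to 925 in Model and 182 to 581 in LIPUS. The lobe products varied within and between groups. The log2 ratio of ventral to dorsolateral products ran from 1.16 to 5.84 in Control, from -9.51 to -2.84 in 4 Model libraries and from -0.68 to 4.52 in LIPUS, while Model_7 stood at 7.79. Model_7 is therefore marked apart for the 5 genes. Model means of other genes include it, and the mean without it is added where it differs much.

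The 5 genes were low in Control, and their Model means were 9.59 to 31.8 times the Control means. The LIPUS means of 4 genes lay between those of Control and Model, and that of Npff was the highest of the 3. In bulk tissue, more cells of a type and more RNA per cell cannot be told apart.

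Best1 had the highest level of the 5 in Model. Its level in Control was 1.30, 2.27, 1.34, 1.06 and 1.61 FPKM in libraries 6 to 10, from 85 to 177 reads. The Model libraries 6 to 10 gave 23.8, 5.95, 32.3, 41.3 and 40.9 FPKM, from 424 to 3175 reads. The lowest of these, Model_7, was still above every Control library. LIPUS libraries gave 1.69, 5.20, 8.62, 6.91 and 3.74 FPKM, of which LIPUS_6 fell within the Control range. Group means were 1.52 ± 0.465, 28.9 ± 14.7 and 5.23 ± 2.70 FPKM (SD, n = 5 each), so that the Model mean was 19.0 times the Control mean and the LIPUS mean 3.45 times.

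Pdzk1ip1 was nearly uniform in 4 Model libraries. It was 0.337, 1.02, 0.761, 0.478 and 0.914 FPKM in Control and 9.92, 1.20, 12.6, 11.4 and 11.9 FPKM in Model. Model_7 lay just above the highest Control library, Control_7, and the other Model libraries lay far above both. LIPUS values were 2.44, 3.85, 1.37, 1.82 and 0 FPKM. LIPUS_10, the library richest in mitochondrial reads, had 0 reads of Pdzk1ip1, which allows up to 0.0643 FPKM by counting error alone. The other LIPUS libraries were above all Control libraries. Means were 0.702 ± 0.289, 9.39 ± 4.68 and 1.89 ± 1.41 FPKM (SD, n = 5 each), a 13.4-fold ratio of Model to Control.

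Gnrh1 was close to the detection limit in Control, with 2 to 4 reads a library and 14 in all. The Control levels were 0.114, 0.221, 0.109, 0.108 and 0.254 FPKM. The Model libraries had 14, 16, 93, 111 and 36 reads, or 0.773, 0.967, 5.54, 6.54 and 2.0 FPKM. Every Model library exceeded every Control library, and here Model_6 rather than Model_7 was the lowest. LIPUS libraries had 0, 0, 8, 8 and 26 reads, or 0, 0, 0.530, 0.480 and 1.51 FPKM. The zeros in LIPUS_6 and LIPUS_7 allow up to 0.190 and 0.176 FPKM, so they cannot be placed against the Control levels. The ratio of Model to Control means (3.17 ± 2.69 against 0.161 ± 0.071 FPKM, SD, n = 5 each) was 19.6 and rests on those 14 Control reads.

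Npff differed from the others in where it was high. Control libraries held 0, 1, 4, 0 and 0 reads, the Model libraries 9, 0, 22, 74 and 45, and the LIPUS libraries 20, 12, 58, 44 and 58. In FPKM this was 0, 0.0636, 0.249, 0 and 0 in Control, and 0.571, 0, 1.51, 5.01 and 2.87 in Model. In LIPUS it was 1.46, 0.809, 4.41, 3.03 and 3.87. All LIPUS libraries were above all Control libraries, whereas Model_7 had no read, which allows up to 0.208 FPKM. The group means were 0.063 ± 0.108, 1.99 ± 2.01 and 2.72 ± 1.54 FPKM (SD, n = 5 each), the Control mean resting on 5 reads.

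Ccdc152 gave 0.902, 1.55, 1.08, 0.556 and 0.561 FPKM in Control and 9.49, 1.58, 14.8, 9.00 and 9.69 in Model. Model_7, at 1.58, was barely above Control_7, at 1.55. LIPUS libraries split, with 5.48 and 5.06 FPKM in LIPUS_8 and LIPUS_9 and 0.467, 1.08 and 0.770 in LIPUS_6, LIPUS_7 and LIPUS_10. Those 3 fell within or below the Control range. Means were 0.929 ± 0.412, 8.92 ± 4.73 and 2.57 ± 2.48 FPKM (SD, n = 5 each), a 9.59-fold ratio of Model to Control.

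**Figure D1:**
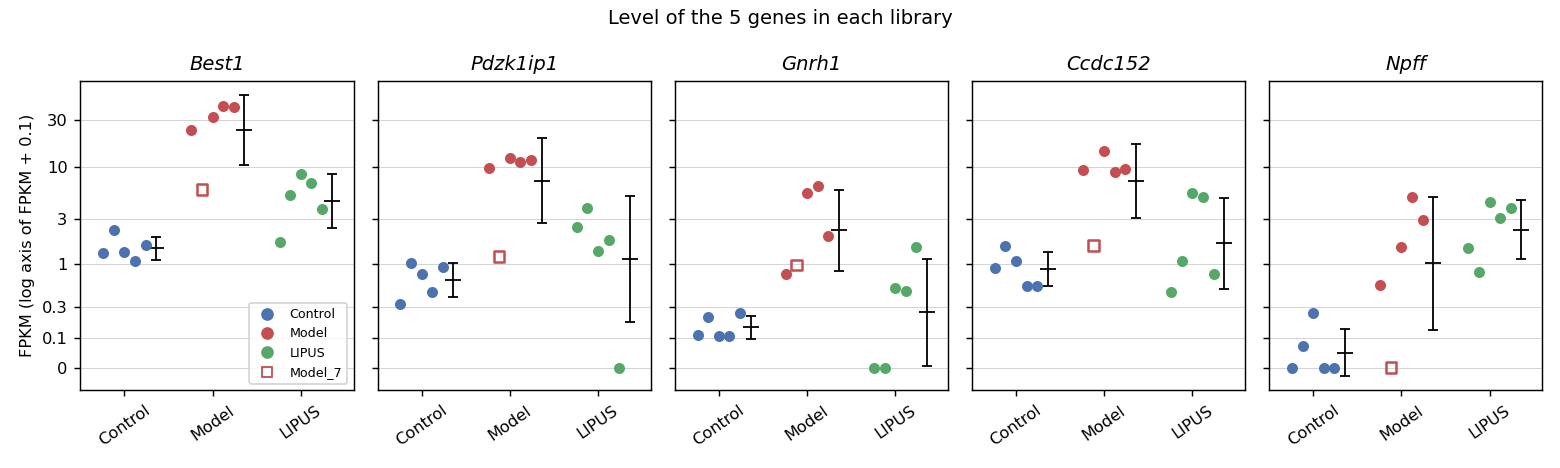
Level of each gene in the 15 libraries, on a log axis of FPKM + 0.1, with the bar at right of each group showing the mean and SD on the log2 scale (n = 5) and Model_7 as an open square. The 4 other Model libraries stand above all Control libraries for every gene, and Npff spans 0.809 to 4.41 FPKM in LIPUS and 0 to 5.01 in Model.

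Per length, the order of the Control means was Best1, Ccdc152, Pdzk1ip1, Gnrh1 and Npff. The order of the Model means was Best1, Pdzk1ip1, Ccdc152, Gnrh1 and Npff, where Pdzk1ip1 and Ccdc152 (9.39 and 8.92 FPKM) differed by far less than their SDs, and so did Gnrh1 and Npff. In LIPUS the order was Best1, Npff, Ccdc152, Pdzk1ip1 and Gnrh1, and each pair of neighbours in it differed by less than the larger of their SDs. None was an abundant transcript in Control, where the highest mean, that of Best1, was 1.52 FPKM. Of the genes tested, 18.0% had a lower Control mean than Best1, and 0.0801% a lower one than Npff. The filter for testing left out genes that were low in most samples. A gene as low in Control as Gnrh1 or Npff could pass it only through Model or LIPUS. These Control percentages therefore do not give a place among all genes of the table, which was not examined. In Model 89.7% of the genes tested were below Best1, 74.7% below Pdzk1ip1, 73.7% below Ccdc152, 51.8% below Gnrh1 and 40.8% below Npff.

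As log2 changes of FPKM + 0.1, Model exceeded Control by 3.94 for Best1, 3.30 for Pdzk1ip1, 3.22 for Gnrh1, 2.96 for Npff and 2.93 for Ccdc152. The standard errors were 0.51, 0.82, 0.74, 0.82 and 0.66, and the added 0.1 understates the change of the low genes Gnrh1 and Npff. Scaled values gave 4.66, 3.95, 3.65, 3.19 and 3.61, so all 5 were higher in Model on both scales. In 4 of the 5 genes every Model library was above every Control library, a pattern that 3.16% of the 12490 genes tested showed. Without Model_7 it held for all 5, beside 7% of the genes. As the genes were chosen on this contrast, nothing is read from these counts. LIPUS exceeded Control by 1.58 for Best1, 0.70 for Pdzk1ip1, 0.50 for Gnrh1, 0.86 for Ccdc152 and 4.08 for Npff, and by 2.94, 1.65, 1.43, 2.15 and 4.92 when scaled. Without LIPUS_10 the Gnrh1 difference was -0.047. Only Npff had all LIPUS libraries above Control (0.416% of genes did). On scaled values Best1 joined it, beside 11.2% of genes.

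Among 12477 nuclear genes tested, Best1 had rank 8 of the log2 changes of Model against Control, Pdzk1ip1 11, Gnrh1 13, Npff 18 and Ccdc152 20. Among genes also called higher, with no overlap of the groups and a mean of at least 1 FPKM, the next below with a plain symbol were Rpl31l2, a ribosomal protein gene copy whose reads may be shared with relatives (2.77, from 0.0512 to 1.21 FPKM), and Fth1, the ferritin heavy chain (2.52). For LIPUS against Control, Npff had rank 2 by log2 change, and Gpnmb, a glycoprotein of macrophages and other phagocytic cells, had rank 4 with 3.80.

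LIPUS against Model was not named in the choice of the genes, but the high Model values and, for Npff, the LIPUS values entered it. A lower LIPUS level of genes picked for high Model levels is therefore a description too, and no p-value is given for it. Best1 was lower in LIPUS than in Model by a log2 change of -2.36 ± 0.51 (SE), Pdzk1ip1 by -2.60 ± 0.82, Gnrh1 by -2.72 ± 0.74 and Ccdc152 by -2.06 ± 0.66. Npff stood at 1.36 times the Model mean, a log2 change of 1.12 ± 0.82. On scaled values the changes were -1.72, -2.31, -2.23, -1.46 and 1.73 in the same order of genes. With the ratio of ventral to dorsolateral products in the fit they were -1.56, -1.93, -2.13, -1.36 and 2.37. No Model library had a ratio within the LIPUS range, so this fit cannot separate lobe makeup from group. Best1 minus Fth1, its neighbour on the chromosome, differed by -0.83.

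The groups overlapped for every gene in this contrast. No member had every LIPUS library below every Model library, against 4.22% of the genes tested. Model_7 was the overlapping library for Best1, Pdzk1ip1 and Ccdc152: without it these 3 members had every LIPUS library below every Model library, beside 18.4% of genes. Leaving out Model_7 took the Npff change from 1.12 to 0.25. The differences of Model against Control and of LIPUS against Model share the Model samples.

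**Figure D2:**
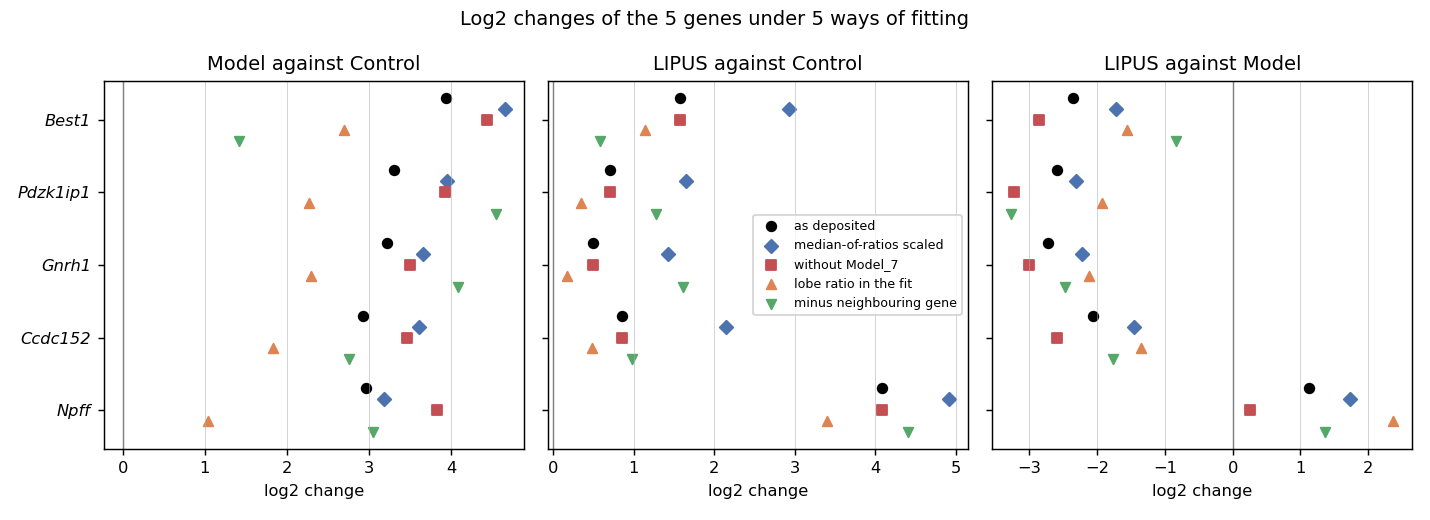
Log2 change of each gene in the 3 comparisons (x axis, log2 units), as deposited, scaled, without Model_7, with the lobe ratio in the fit, and after subtracting a neighbouring gene. In Model against Control, a contrast used in choosing the genes, every setting stays above 0. Best1 drops from 3.94 to 1.42 when Fth1 is subtracted.

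Levels of the members were set beside the lobe products because Model_7 differed from the other Model libraries in both. Pbsn was 71781, 304, 98231, 128872 and 137386 FPKM in Model, and Msmb 23584, 4.63, 28341, 39586 and 40320, each lowest in Model_7. In Control, Pbsn ran from 3199 FPKM in Control_6 to 55910 in Control_7, and in LIPUS from 2919 in LIPUS_6 to 34772 in LIPUS_7. With Model_7 included, neither product passed the test between Model and Control (limma adjusted p = 0.378 and 0.397). Without Model_7, the Model mean was 109068 FPKM for Pbsn and 32958 for Msmb, against Control means of 19503 and 1903. Msmb ran from 174 to 4296 FPKM in Control. Each Model library but Model_7 was above every Control library in both products. Scgb2a1, a ventral secretoglobin, fell from 69584 to 5595 FPKM (limma adjusted p = 0.000845). Model_7 had 21145 FPKM of Scgb2a1, and without it the Model mean was 1708. Model_7 was the lowest Model library for Best1, Pdzk1ip1, Ccdc152 and Npff, as for Pbsn and Msmb. Control_7, highest of Control in Pbsn, was also highest of Control in Best1, Pdzk1ip1 and Ccdc152, but Control_10 was highest in Gnrh1 and Control_8 in Npff. In LIPUS, LIPUS_7 was highest in Pbsn and in Pdzk1ip1. There LIPUS_8 was highest in Best1, Ccdc152 and Npff, and LIPUS_10 in Gnrh1, while LIPUS_7 was lowest in Npff and had no read of Gnrh1.

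Libraries with like deposited levels of Pbsn could differ in the members, and in lobe makeup as well. Control_7, at 55910 FPKM of Pbsn, had 2.27 FPKM of Best1, whereas Model_6, at 71781, had 23.8. Model_7, with the least Pbsn of all 15 libraries, had more Best1 than any Control library. LIPUS_10, with 5528 FPKM of Pbsn, had 3.87 FPKM of Npff, and Control_8, with 5342, had 0.249. The log2 ratio of ventral to dorsolateral products was 1.16 in Control_7 and -6.56 in Model_6. It was 5.04 in Control_8 and -0.68 in LIPUS_10, whose scaled Pbsn levels were 3009 and 18476 FPKM. These pairs are therefore not matched for lobe makeup. Levels were also divided by Pbsn, on a scale shared by all libraries. Best1 was then 298 to 332 in Model without Model_7 and 40.6 to 406 in Control. In the same order, Pdzk1ip1 was 86.5 to 138 and 18.2 to 142, and Ccdc152 69.9 to 151 and 23.0 to 282. Npff was 7.96 to 38.9 and 0 to 46.7. Gnrh1, at 10.8 to 56.4 and 3.96 to 35.7, exceeded the Control range in part. Model_7, with the least Pbsn, lay above the Control range for all members but Npff. With the log2 ratio of ventral to dorsolateral products in the fit, the Model excess over Control was 2.70 for Best1, 2.27 for Pdzk1ip1, 2.30 for Gnrh1, 1.84 for Ccdc152 and 1.03 for Npff. Model_7 had a higher ratio, and the other Model libraries a lower one, than every Control and LIPUS library. No Model library thus shared their range, and this fit cannot separate lobe makeup from group. Without Model_7, and with no ratio in the fit, the Model excess was 4.43, 3.93, 3.5, 3.46 and 3.83. Within groups, deviations of scaled log2 levels over the 15 libraries correlated with those of Pbsn and Msmb at r = 0.86 and 0.83 for Best1 and 0.70 and 0.72 for Ccdc152. For Npff they were 0.66 and 0.56, for Pdzk1ip1 0.53 and 0.56, and for Gnrh1 0.37 and 0.31. These points share library composition. The correlations include Model_7, the lowest Model library for Pbsn and Msmb, and LIPUS_10, with 0 reads of Pdzk1ip1. They were not repeated without either. How far lobe makeup sets the level of these genes was not tested.

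**Figure D3:**
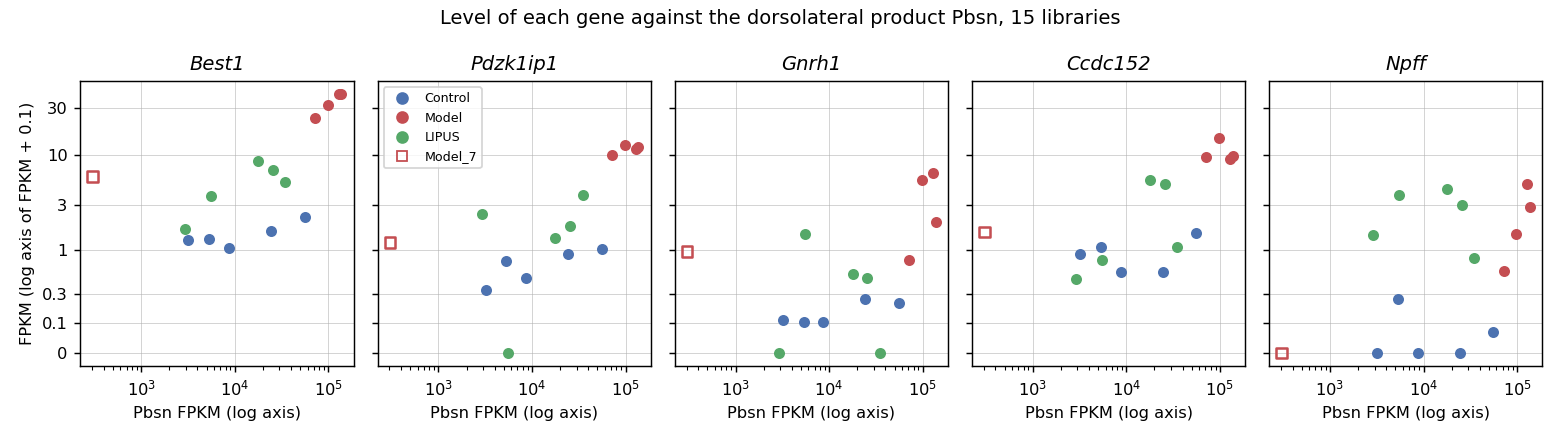
Level of each gene (FPKM + 0.1, log axis) against Pbsn (FPKM, log axis) in the 15 libraries, Model_7 as an open square. The 4 Model libraries with 71781 to 137386 FPKM of Pbsn hold the highest Best1, Pdzk1ip1 and Ccdc152, and Model_7, with 304, lies at the far left.

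Genes beside the members on the chromosome were compared. Reads of genes that overlap, such as Ccdc152 and Selenop, cannot be told apart when the counting strand is unknown. Fth1, Kctd9, Tarbp2 and Tal1 lie next to a member without overlapping it in GRCr8. Best1 adjoins Fth1, whose product stores iron. Its RNA was very abundant: the group means were 910 ± 253 FPKM (Control), 5499 ± 2144 (Model) and 1815 ± 510 (LIPUS; SD, n = 5 each). Fth1 rose in Model (log2 2.52, limma adjusted p = 2.96e-05) and in LIPUS against Control (0.99, adjusted p = 0.0156), and it fell in LIPUS against Model (-1.53, adjusted p = 0.0253, and 0.15 when scaled). Per 1000 FPKM of Fth1, Control had 1.68 ± 0.326 FPKM of Best1, Model 4.90 ± 1.35 and LIPUS 2.83 ± 1.06 (SD, n = 5 each). All Model libraries, from 2.65 in Model_7 to 6.25 in Model_9, exceeded the Control range of 1.32 to 2.04. The LIPUS ratios of 1.04 to 3.79 overlapped both groups. The gene on the other side, Rab3il1, which encodes a Rab exchange factor, fell in Model (-1.11, limma adjusted p = 0.0166), a call lost on scaled values (-0.41, adjusted p = 0.46).

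Ccdc152 lies over Selenop on the opposite strand. Selenop was 126, 149 and 119 FPKM in Control, Model and LIPUS, with log2 changes of 0.17 (limma adjusted p = 0.659) in Model and -0.12 (adjusted p = 0.702) in LIPUS against Control. Scaled changes were 0.95 (adjusted p = 0.069) and 1.31 (adjusted p = 0.022), against 3.61 and 2.15 for Ccdc152. Per 1000 FPKM of Selenop, Control had 7.31 ± 2.89 FPKM of Ccdc152, Model 55.5 ± 21.3 and LIPUS 19.3 ± 15.5 (SD, n = 5 each). Model_7, with the lowest Model ratio at 22.4, still exceeded the highest Control ratio of 11.6. Ghr, the growth hormone receptor gene on its other side, fell in Model (-2.54, limma adjusted p = 0.000187).

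None of the tested neighbours of the peptide genes was called higher in Model on the deposited scale. Kctd9, next to Gnrh1, fell in Model from 17.1 to 9.47 FPKM (-0.87, limma adjusted p = 0.00926), a difference of -0.09 (adjusted p = 0.73) on scaled values. Dock5, on the other side of Gnrh1, fell in Model by 2.12 on the log2 scale (limma adjusted p = 0.00106). A non-coding gene that overlaps Gnrh1, LOC103693653, had 6 reads in Control, 52 in Model and 45 in LIPUS. Tarbp2, beside Npff and encoding a partner of Dicer, was 5.82, 5.74 and 5.17 FPKM in the groups and did not pass the test in any contrast on that scale. Scaled, it was higher in LIPUS than in Control (1.07, limma adjusted p = 0.0069). Atf7, the transcription factor gene on the other side of Npff, fell in Model by 3.26 (limma adjusted p = 4.43e-05). By Pdzk1ip1, Tal1, a blood lineage factor, held 240, 39 and 137 reads, the P450 gene Cyp4x1 7, 0 and 0, and the overlapping LOC120102952 0, 17 and 0. Fth1 was the only one of the 8 neighbours tested that was called higher in Model.

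**Figure D4:**
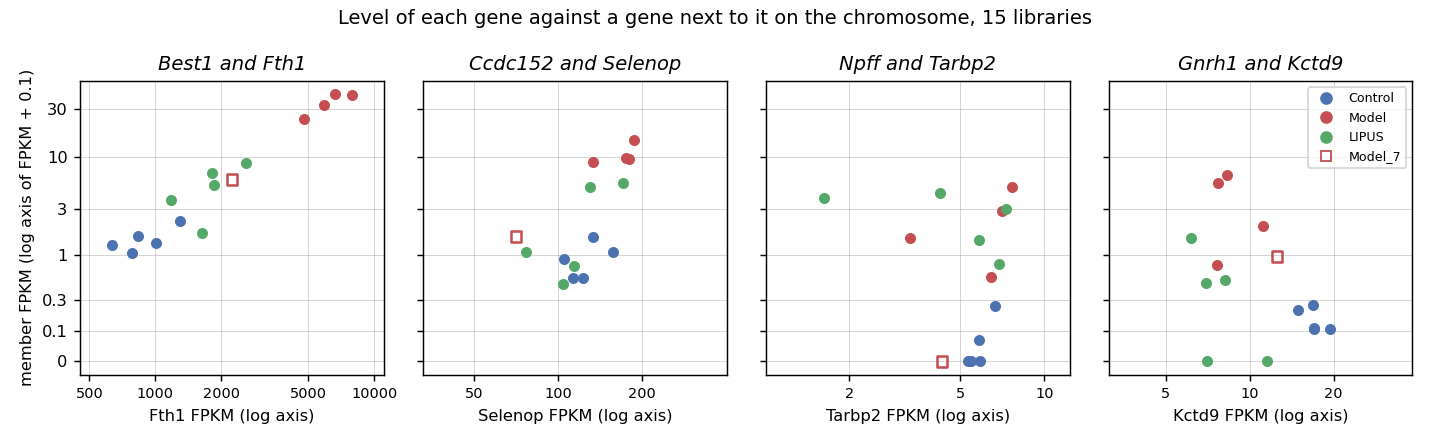
Level of 4 of the genes (FPKM + 0.1, log axis) against a neighbouring gene (FPKM, log axis) in the 15 libraries. Best1 and Fth1 are both highest in the 4 Model libraries other than Model_7. Ccdc152, Npff and Gnrh1 also separate these 4 libraries from Control. In them Kctd9 is below its Control levels, and Tarbp2 runs from 3.30 to 7.66 FPKM (5.34 to 6.64 in Control). Selenop runs from 133 FPKM in Model_9 to 187 in Model_8, and all of them but Model_9 exceed the highest Control level of 157.

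Within groups the members varied together to unlike degrees. Over the 15 libraries, deviations of scaled log2 levels from the group means correlated at r = 0.87 between Best1 and Ccdc152, 0.85 between Best1 and Npff and 0.73 between Best1 and Gnrh1. Pdzk1ip1 stood at 0.18 with Best1 and -0.40 with Gnrh1. Both values include LIPUS_10, which had 0 reads of Pdzk1ip1 but scaled levels of 12.5 FPKM of Best1 and 5.05 of Gnrh1. They were not repeated without that library. These points share library composition and depth, and the correlations are descriptions. The gene most like Best1 of the 12489 others was Pts, an enzyme of tetrahydrobiopterin synthesis (r = 0.967, and 0.932 without Model_7). For Pdzk1ip1 it was the zinc finger gene Zfp61 (0.970 and 0.958). Impact, a regulator of translation, was most like Gnrh1 (0.914 and 0.912), and N6amt1, a methyltransferase, most like Ccdc152 (0.926 and 0.885). Among the genes most like Npff were the ribosomal protein genes Rplp1 (0.950 and 0.900) and Rps21 (0.945 and 0.906). Rplp1 rose from 609 to 2285 FPKM in Model (log2 1.80, limma adjusted p = 0.000698).

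Of the chloride channel, PDZ scaffold, hormone axis and peptide genes tested, none was called higher in Model on either scale. Of all genes, 2.95% were called higher as deposited and 15.3% when scaled. Of 20 genes of chloride and anion channels and carriers, 11 were tested. In Model 0 were called higher and 6 lower (median log2 change -1.55), where 2.95% of all genes were higher and 43.1% lower. Slc12a2, the cotransporter that loads secretory cells with chloride, fell from 108 ± 27.4 to 6.79 ± 1.86 FPKM (SD, n = 5; log2 -3.98, limma adjusted p = 0.000309). The lipid scramblase and channel Ano6 fell from 10.9 to 3.89 (limma adjusted p = 0.000828, and 0.051 when scaled). Ano1, a calcium-activated chloride channel like Best1, stood at 8.93, 7.18 and 1.01 FPKM in Control, Model and LIPUS. It fell in LIPUS against Model (-3.15, limma adjusted p = 0.0409, and 0.11 when scaled). The other bestrophins stayed near the detection limit, with 14, 5 and 0 reads of Best2, 6, 0 and 0 of Best3 and 0, 26 and 6 of Best4 in Control, Model and LIPUS. In LIPUS against Control 10 of the 11 were called lower, beside 74.4% of genes, and 3 were in LIPUS against Model, beside 13.3%. Scaled values left 2 lower in Model (20.2% of all genes), 7 in LIPUS against Control (14.3%) and 0 in LIPUS against Model (1.49%).

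Of the 14 genes of the PDZ scaffold and its apical transporters, 5 were tested, with 0 higher and 2 lower in Model (1 when scaled), near the 43.1% and 20.2% of all genes that were lower. Slc9a3r1, the scaffold NHERF1, fell from 67.9 to 24.8 FPKM (log2 -2.16, limma adjusted p = 0.00764). Model_7 was at 82.1 FPKM, and the Model mean without it was 10.5. Pdzk1, the partner that names Pdzk1ip1, had 84, 61 and 28 reads in the groups. The glucose cotransporter Slc5a2, which works with the Pdzk1ip1 protein in the kidney, had 41, 20 and 44 reads, and its relative Slc5a1 had 222, 23 and 0.

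The hormone axis around Gnrh1 was represented by 10 of 15 listed genes, most of them too low to be tested. Prlr, the prolactin receptor, fell in Model from 42.3 ± 11.8 to 2.72 ± 0.621 FPKM (SD, n = 5; log2 -3.89, limma adjusted p = 0.000195). It was 1.90 FPKM in LIPUS and lower there than in Control (log2 -4.98, limma adjusted p = 1.64e-05). The luteinizing hormone receptor Lhcgr had 3 reads in Control and 0 in the other groups. The receptor Gnrhr was not analysed here.

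Of the RFamide and opioid peptide genes 10 of 14 were in the table and 3 were tested, with 0 called in Model. Npffr1, a receptor of neuropeptide FF, had 9 reads in Control and 0 in Model and LIPUS, and Npffr2 was not analysed here. Penk, the enkephalin precursor, was 9.21 FPKM in Control and 6.38 in Model, and fell to 1.55 in LIPUS against Control (log2 -2.51, limma adjusted p = 0.00722, and 0.32 when scaled). Enzymes that cut and finish peptide precursors fell in 4 of 5 tested in Model and 5 of 5 in LIPUS against Control, where 43.1% and 74.4% of all genes were lower. Scaled values gave 4 and 3 lower, beside 20.2% and 14.3%. Pam, which amidates peptide ends, fell from 27.4 ± 7.58 to 2.91 ± 1.42 FPKM in Model (SD, n = 5; log2 -3.29, limma adjusted p = 2.43e-06), and the convertase Furin from 88.8 to 11.3 (adjusted p = 3.02e-05). The neuroendocrine convertases Pcsk1 and Pcsk2 had 33 and 45 reads in Control and 0 in Model and LIPUS. Neuron markers, a list of 7 genes, summed to 5.25 to 33.8 FPKM in Control, 1.13 to 3.5 in Model and 1.78 to 13.1 in LIPUS, with 1 gene at 0 reads in Model and 1 in LIPUS. Of the 4 neuron markers tested 3 fell in Model (2 when scaled), beside 43.1% and 20.2% of all genes. Their part in the levels of Gnrh1 and Npff was not tested.

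Among 21 tested genes of selenoproteins and their synthesis, 1 rose and 3 fell in Model as deposited (2.95% and 43.1% of all genes), while scaled values gave 7 higher and 1 lower (15.3% and 20.2% of all genes). Gpx4, which removes lipid peroxides, rose from 65.5 to 141 FPKM (log2 1.09, limma adjusted p = 0.00268) and fell in LIPUS against Model (-1.15, adjusted p = 0.0252, and 0.12 when scaled). Of 10 iron genes, Fth1 and Ftl1 rose and 5 fell in Model, where 2.95% of all genes were higher and 43.1% lower. Scaled, 3 were higher and 3 lower, beside 15.3% and 20.2%. Ftl1, the ferritin light chain, went from 204 ± 30.2 to 536 ± 193 FPKM in Model and 446 ± 120 in LIPUS (SD, n = 5 each), with limma adjusted p of 0.0012 and 0.00269 against Control. The transferrin receptor Tfrc fell from 20.2 to 4.37 FPKM in Model (log2 -2.22, limma adjusted p = 0.000432).

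Markers of other cells and of nearby organs were measured as well. Seminal vesicle products, 8 genes, summed to 471 to 93624 FPKM in Control, 46.3 to 92825 in Model and 303 to 19710 in LIPUS, with 0 of 6 tested called in Model. Fibroblast markers fell in 5 of 5 in Model, from sums of 582 to 1060 FPKM to 58.7 to 152, and stayed at 74.3 to 203 in LIPUS. Macrophage markers summed to 39.1 to 50.3, 10.6 to 25.9 and 23.4 to 38.2 FPKM, and 3 of 5 fell in Model. Basal epithelium markers fell in 4 of 4 and endothelium markers in 4 of 4, beside 43.1% of all genes lower in Model. On scaled values 3 of 5 fibroblast, 2 of 5 macrophage, 2 of 4 basal and 3 of 4 endothelium markers were called lower in Model, and 3 of 7 luminal markers higher and 1 lower, beside 20.2% of all genes lower and 15.3% higher. The part of these shifts, or of the mitochondrial share, in the levels of the 5 genes was not tested.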

How the data were processed

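RNA-seq values of prostate tissue from 15 rat samples were used as 1 table of FPKM for 22436 genes, as deposited by the authors. Per the submitters' processing notes, the tools were HISAT2, HTSeq, DESeq2, SAMtools, fastp and R 3.2.0 and the genome build was rn6, with no role or order given. The strand is not stated. Whole reads were recovered from the FPKM within a tolerance of 0.001 reads (all genes came out whole) and gave depth, read counts and the floors, which allow 3 reads for a count of 0 and cover counting error only. PCR copies make reads less independent than counting assumes.

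Deposited FPKM were turned into log2(FPKM + 0.1). Genes above 0.5 FPKM in at least 5 samples were fitted, 12490 in number, with limma 3.58.1 in R 4.3.3: 1 mean per group over all 15 samples, empirical Bayes with trend, Benjamini-Hochberg adjustment, called at an adjusted p under 0.05. This pools the spread of the groups. All 5 genes passed the filter, which they could pass through the group where they are high. Median-of-ratios factors came from 10313 genes.

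The 5 genes and all lists were chosen with earlier results of these data known. Other genes are named as chromosome neighbours by RefSeq order in GRCr8, the most alike by correlation, the next in rank, receptors of the members, or up to 4 of a list by smallest p. Ano1, Gpx4 and the list members given by reads were chosen after their values were seen. Alternatives covered the pseudocount, the filter, scaling, the samples fitted, a replicate block, the lobe ratio, each library left out, limma-voom on recovered reads and subtraction of a neighbour. Some genes that meet these rules are not reported here. The planned p-values of the 5 genes in LIPUS against Model were computed and are not given, because Model values entered the choice of the genes.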

Additional observations from a re-analysis of the deposited data

Results flagged for a closer look

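Of 36 groups of 5 values examined, 2 held a library whose gap to the nearest other exceeded 0.71 of the group's range. Chance does this in about 1 of 20 groups of normally distributed values. That rate need not hold for low counts with zeros, such as those of Npff in Control. Pdzk1ip1 in Model_7 stood at 1.20 FPKM, with the next Model library at 9.92 and a gap of 0.767 of the range. Npff in Control_8 stood at 0.249 FPKM, which is 4 reads, with the next Control library at 0.0636 FPKM and a gap of 0.745 of the range.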

How the results depend on the processing

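The 5 genes were chosen on these same values, so directions that held under the alternatives are descriptions and not a test. The direction of the Model excess over Control held for all 5 genes under every alternative run. It ranged in log2 units from 1.42 to 5.20 for Best1, 2.27 to 4.63 for Pdzk1ip1, 1.59 to 4.08 for Gnrh1, 1.84 to 4.19 for Ccdc152 and 1.03 to 4.53 for Npff. Gnrh1 in LIPUS against Control reversed, to -0.28 with a pseudocount of 0.01 and to -0.047 without LIPUS replicate 10 (-0.047 to 0.96 over all libraries left out in turn). In LIPUS against Model the directions of all 5 genes held under every alternative run, from -2.86 to -0.83 for Best1, -3.31 to -1.69 for Pdzk1ip1, -4.08 to -1.30 for Gnrh1 (the stricter filter drops it), -2.60 to -1.21 for Ccdc152 and 0.25 to 2.37 for Npff. Genes called in LIPUS against Control went from 9415 to 3228 with median-of-ratios scaling, 2985 with equal nuclear sums and 4293 with that scaling and no Model_7. In LIPUS against Model, 1820 became 812 with no filter, 526 with scaling, 260 with equal nuclear sums, 3 when only those groups were fitted, 62 with the lobe ratio and 3997 with scaling and no Model_7 (4705 genes had an unadjusted p under 0.05). The cause was not tested. Leaving out 1 library gave 4889 to 6979 genes in Model against Control (5750 with all), 8655 to 10108 in LIPUS against Control and 8 (without Model_9) to 4576 (without LIPUS_7) in LIPUS against Model. Scaling changed the split of higher and lower calls from 368 and 5382 to 1911 and 2522 in Model against Control, from 119 and 9296 to 1448 and 1780 in LIPUS against Control, and from 163 and 1657 to 340 and 186 in LIPUS against Model. Groups share label numbers, but of 15 same-number pairs 3 had r over 0.1 (range -0.42 to 0.25) and 0 libraries correlated best with their own number. With the replicate block 5590, 9287 and 3 genes were called in the 3 comparisons. Gnrh1 and Npff rest on few reads: among genes of 21 to 100 reads, 61.4 to 74.6% of counts were even numbers in Model and 70.2 to 83.8% in LIPUS, against 48.4 to 49.6% in Control, which counting error takes no account of.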
